A study of Mus musculus with 40 samples.

Results

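The early 2-cell embryo (E2C) is the stage at which mouse embryos begin to transcribe their own genome after the first cleavage. E2C embryos of *Tdp43* oKO females were compared here with E2C embryos of control females, over all genes with a mean of at least 1 FPKM (fragments per kilobase of transcript, scaled to the mapped fragments of a library) in the 4 libraries. This rule kept 6657 of 24056 genes, in 4 of the 24 RNA-seq libraries of the study. *Krt71*, with a mean of 1.0001 FPKM, was the last gene kept, and *Zfp937*, with 0.99998 FPKM, the first left out. *Tdp43* oKO females are *Tdp43* flox/flox;*Zp3-Cre*, with loxP sites around exon 3 of *Tdp43*, and control females are *Tdp43* flox/flox, both on a mixed C57BL/6J and ICR background. *Zp3-Cre* is active in growing oocytes, so the deletion removes the maternal supply of TDP-43, while the mates were normal fertile ICR males and each embryo inherited an intact paternal allele. All females were 7 to 8 weeks old and were treated with PMSG and HCG. The embryos were collected 36 h after HCG, freed of the zona pellucida, and pooled to 20 per library, with 2 libraries per genotype prepared by smart-seq2. The sources do not say whether the 2 pools of a genotype came from different females, so the spread behind each p-value may be technical. That spread was estimated over all 24 RNA-seq libraries, most of them from other stages.

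TDP-43, encoded by *Tardbp*, is an RNA- and DNA-binding protein of the hnRNP family. At fertilization the mouse embryo carries RNA stored by the oocyte. This maternal RNA is degraded while zygotic genome activation (ZGA) starts, first as a weak minor wave in the 1-cell and early 2-cell embryo, with a burst of multicopy 2-cell genes such as the *Zscan4* family, and then as a major wave in the late 2-cell embryo (L2C).

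The *Tdp43* transcript itself (*Tardbp*) was 7.95 and 8.15 FPKM in the control libraries and 3.52 and 2.34 FPKM in the *Tdp43* oKO libraries (log2 fold change -1.22 ± 0.23 (SE), adjusted p = 0.00136), so both *Tdp43* oKO libraries lay below both control libraries. The difference was under 2-fold with a pseudocount of 5 and, narrowly, with quantile normalization, with an adjusted p that still passed in both. The value covers the whole gene (chromosome 4, 147986491 to 148001128, minus strand, mm9), so the deleted exon cannot be read from it. The summed FPKM was 301587 to 363993 per library, and 6774 and 6822 genes reached 1 FPKM in the control libraries against 6146 and 6463 in the *Tdp43* oKO libraries. Pearson's r of log2(FPKM + 1) across the 6657 genes was 0.977 between the control libraries, 0.96 between the *Tdp43* oKO libraries and 0.908 to 0.934 between genotypes. More than 2-fold apart were 10.05% of genes between the *Tdp43* oKO libraries and 2.97% between the control libraries. Few markers of other cell types were high enough to be tested: of 59 genes on 4 lists (cumulus and granulosa, male germ cell, blood and immune, oviduct), 10 were tested. *Serpine2*, also expressed in the oocyte libraries, made up most of the granulosa list (10.5 and 17.7 FPKM in control, 10.2 and 31.8 in *Tdp43* oKO, not called), which summed to 12.1 and 18.7 FPKM in control and 14.1 and 34.5 in *Tdp43* oKO. *Cyp19a1*, the aromatase of granulosa cells, was higher (1.03 and 0.568 FPKM in control, 2.97 and 2.47 FPKM in *Tdp43* oKO) but not called without control library 2 or *Tdp43* oKO library 1. It was also found in the oocyte libraries, with 16.1 and 11.4 FPKM in control full-grown oocytes and 12.8 and 13.6 in those of *Tdp43* oKO. At the 1-cell stage it was 9.12 and 8.77 FPKM in control and 6.80 and 6.69 in *Tdp43* oKO. The granulosa markers *Foxl2* and *Inha* were listed at 0 in all 4 libraries. The protamine gene *Prm2* was lower (7.100 and 13.6 FPKM in control, 0 and 0.215 FPKM in *Tdp43* oKO), and *Prm1* was listed at 0 in all 4. The summed FPKM of the male germ cell list was 17.1 and 23.8 in control and 4.78 and 3.31 in *Tdp43* oKO, and that of the blood and immune list was 15.2 and 7.58 in control and 2.41 and 6.85 in *Tdp43* oKO. The part of these lists in the results below was not tested.

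More genes were lower than higher in E2C embryos that lacked maternal TDP-43, and the changes were large at both ends: the 2-cell genes *Timd2*, *Spic* and *Obox6* fell to a few FPKM or less, while *Mt1* and a row of oocyte *Fbxw* genes stood several-fold above control. Genes were called where limma's p, adjusted by Benjamini and Hochberg's method, did not exceed 0.05 and the levels differed at least 2-fold. By this rule 245 of 6657 genes (3.68%) were higher and 541 (8.13%) were lower in *Tdp43* oKO embryos. The called-lower genes summed to 21080 and 19637 FPKM in the control libraries and to 5083 and 7958 FPKM in the *Tdp43* oKO libraries. For 173 of the 541, the *Tdp43* oKO mean was below 1 FPKM. In pooled embryos, fewer embryos that express a gene and less RNA of it per embryo cannot be told apart. In every comparison below, a log2 fold change is on the log2(FPKM + 1) scale, *Tdp43* oKO minus control, and understates the change of low genes. The median over all genes tested was -0.15, and -0.01 after median-ratio scaling, which gave 349 genes higher and 454 lower. The counts fell to 133 and 258 without control library 1, and to 125 and 333 without control library 2, and 902 genes were called lower without *Tdp43* oKO library 2. An exact permutation test of a single value cannot go below p = 0.33 with 2 against 2 libraries, so the calls rest on the model across genes and stages. With only the 4 E2C libraries in the model, 165 genes were called higher and 391 lower.

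**Figure D1:**
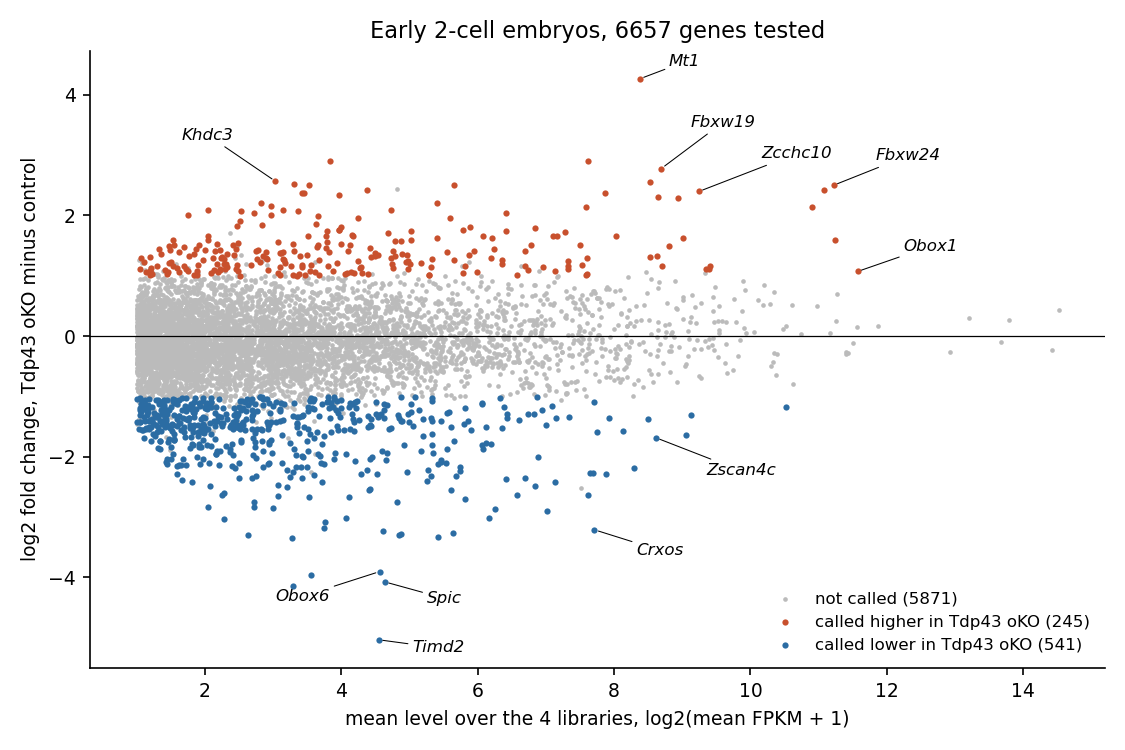
Each point is 1 of the 6657 genes tested in E2C, with the mean level over the 4 libraries on the x axis (log2(mean FPKM + 1)) and the log2 fold change, *Tdp43* oKO minus control, on the y axis. The 245 genes called higher reach up to *Mt1* (4.27), and the 541 called lower reach down to *Timd2* (-5.04).

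Many of the genes that rise in control from the MII oocyte to L2C were lower. Genes were classed from the control MII oocyte, 1-cell and L2C libraries only, which do not enter the E2C comparison. Of 768 tested genes activated in the 2-cell embryo (over 5 FPKM in L2C and either under 5 FPKM in MII oocytes and at least 3-fold up, or over 5-fold up), 252 (32.8%) were called lower and 10 (1.3%) higher, with a median log2 fold change of -0.66. The class has 1296 genes in all. Of the 768 that passed the filter, 176 had a *Tdp43* oKO mean below 1 FPKM, 92 of the 252 lower genes among them, and passed through the control libraries, so these counts describe the genes that passed. They made up 46.6% of all genes called lower. Genes activated at the 1-cell stage, under 5 FPKM in MII oocytes and over 5 FPKM and at least 3-fold up in 1-cell embryos, formed a class of their own, of which 27 of 289 (9.34%) were lower and 7 higher, close to the 8.13% of all genes. Maternal genes, which are over 5 FPKM in MII oocytes and fall at least 3-fold by L2C, had 56 of 1910 (2.93%) lower and 120 (6.28%) higher, and made up 49% of all genes called higher. After median-ratio scaling 234 of the 2-cell activated genes were lower, and 176 maternal genes were higher.

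In levels, the 2-cell activated class averaged a log2(FPKM + 1) of 1.59 and 1.69 in the 1-cell control libraries, 2.06 and 1.98 in the E2C control libraries and 4.42 and 4.46 in the L2C control libraries. The *Tdp43* oKO libraries were at 1.65 and 1.72 at the 1-cell stage and at 1.39 and 1.52 in E2C. Both *Tdp43* oKO E2C libraries thus stood below every 1-cell library of either genotype, and in L2C the class was at 3.13 and 2.82. The share of these genes at 5 FPKM or more was 29.2% and 26.9% in the E2C control libraries and 18.7% and 19.9% in *Tdp43* oKO. In control full-grown oocytes, which did not enter the class rule, the 2-cell activated class averaged 2.35 and 2.23, with 34.4% and 30.9% at 5 FPKM or more. Part of the class was thus also present in the oocyte. The 1-cell activated class averaged 3.92 and 3.79 in control full-grown oocytes, with 85% and 82.9% at 5 FPKM or more. In the 1-cell control libraries it averaged 3.53 and 3.66, so most of this class, too, was present in the full-grown oocyte. In E2C it averaged 2.43 and 2.45 in control and 2.03 and 2.27 in *Tdp43* oKO, which do not overlap. The maternal class averaged 3.59 and 3.55 in the E2C control libraries and 3.52 and 3.73 in *Tdp43* oKO, which overlap.

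**Figure D2:**
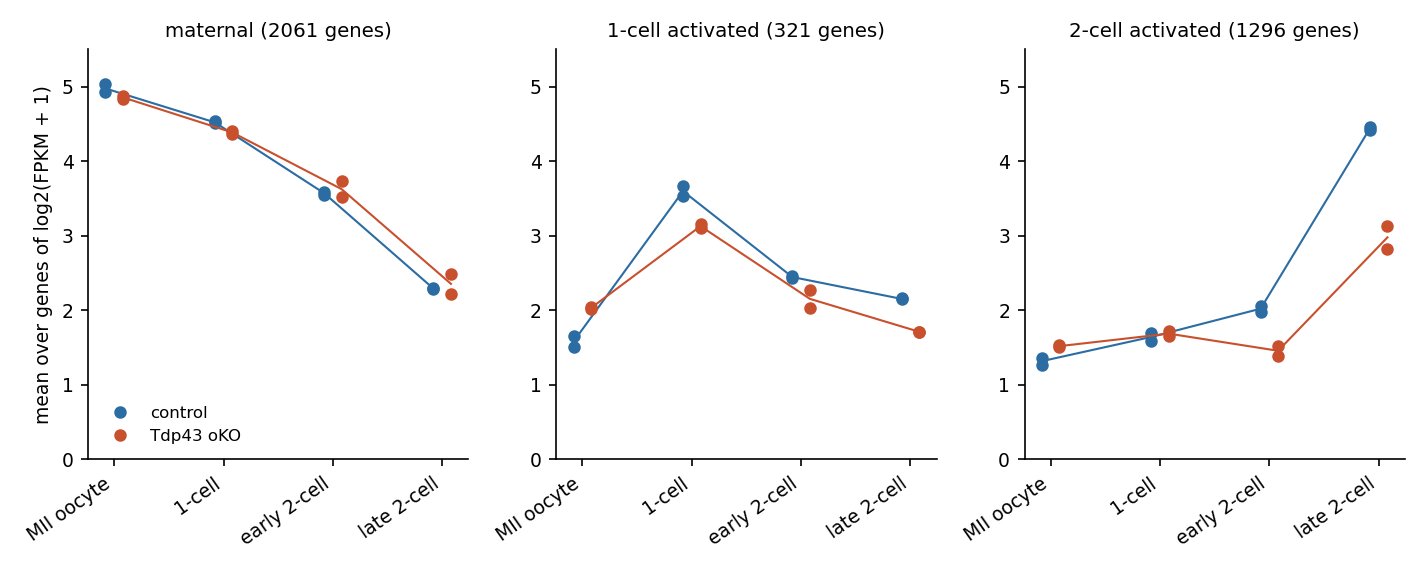
Mean log2(FPKM + 1) over the genes of each class (y axis) in each library (points) by stage (x axis), with lines through the means of the 2 libraries of a genotype. In E2C the 2-cell activated class is at 2.06 and 1.98 in control and at 1.39 and 1.52 in *Tdp43* oKO, while the maternal class overlaps between genotypes.

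The largest decreases were in genes that were near 0 before the 2-cell stage and rose in control E2C. *Timd2* (chromosome 11, 46482462 to 46520563), which encodes a membrane receptor of the TIM family, was 57.2 and 31.8 FPKM in the control libraries and 0.0249 and 0.726 FPKM in the *Tdp43* oKO libraries (log2 fold change -5.04 ± 0.29 (SE), adjusted p = 6.64e-09). It was at most 0.150 FPKM in every oocyte and 1-cell library. *Spic* (chromosome 10, 88137517 to 88147760), an ETS-family transcription factor, was 40.5 and 51.6 FPKM in control and 1.11 and 2.63 FPKM in *Tdp43* oKO (log2 fold change -4.08 ± 0.37 (SE), adjusted p = 6.69e-07). In control embryos *Spic* stood at 1.098 and 1.21 FPKM at the 1-cell stage, and it stood at 1.45 and 1.74 FPKM in *Tdp43* oKO, so a rise to over 40 FPKM by E2C was seen in the control libraries only. The homeobox gene *Crxos* was the most abundant of this group, with 376 and 378 FPKM in control and 49.3 and 32.02 FPKM in *Tdp43* oKO (log2 fold change -3.21 ± 0.32 (SE), adjusted p = 2.49e-06). *Gm11517* (20.5 and 21.6 FPKM against 1.80e-05 and 0.982), *1600025M17Rik* (16.7 and 18.5 against 0 and 0.109) and *Rnf11*, which encodes a RING finger protein (19.3 and 14.1 against 0.424 and 1.08), fell to near 0 as well. *Nup62cl*, *1700013H16Rik*, *Gm16381* and *B020004C17Rik* followed, with log2 fold changes of -3.08, -3.18, -3.27 and -3.33. The libraries of the genotypes did not overlap for any of these genes, but this was a condition of their choice and not a result. Of all genes tested, 35.3% were separated in this direction.

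Many of these genes rose later in *Tdp43* oKO embryos. In L2C, *Timd2* reached 41.96 and 47.01 FPKM in *Tdp43* oKO against 194 and 199 in control, *Spic* 65.3 and 50.7 against 323 and 396, and *Crxos* 436 and 287 against 1444 and 1242. For all 3, the L2C level in *Tdp43* oKO was below the L2C level in control. *Gm16381* had 643 and 451 FPKM in *Tdp43* oKO L2C against 357 and 325 in control. Of the 541 genes called lower in E2C, 260 (48.1%) were called lower in L2C and 65 (12%) were called higher there. These 260 were 8.23% of the 3158 genes called lower in L2C (40.7% of 7760 tested), where the median log2 fold change of all genes was -0.79. These shares depend on the scaling. After median-ratio scaling of both stages, L2C had a median of -0.0022, with 1327 genes higher and 904 lower, and of the 454 genes lower in E2C, 84 (18.5%) were lower and 93 (20.5%) were higher in L2C.

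A few of the largest decreases were of another kind. *Unc13c*, which encodes a synaptic vesicle priming protein, was 55.8 and 48.7 FPKM in control and 4.19 and 4.78 FPKM in *Tdp43* oKO E2C (log2 fold change -3.28 ± 0.23 (SE), adjusted p = 8.39e-08), and it was already 21.6 and 20.2 against 2.34 and 2.54 FPKM in full-grown oocytes (FGO). *Hmgn3*, which encodes a nucleosome-binding protein, was 41.7 and 44.3 against 3.74 and 3.62 FPKM in E2C (log2 fold change -3.23 ± 0.37 (SE), adjusted p = 8.65e-06) and 9.08 and 11.5 against 3.09 and 1.62 FPKM in FGO. At all 5 stages both *Tdp43* oKO libraries lay below both control libraries for *Unc13c* and *Hmgn3*. The protease inhibitor gene *Spink2* was 40.1 and 62.6 against 3.06 and 5.64 FPKM in E2C (log2 fold change -3.30 ± 0.41 (SE), adjusted p = 2.00e-05) and was called lower at the 1-cell stage as well, where control rose to 17.1 and 28.2 FPKM and *Tdp43* oKO was at 4.13 and 2.05 FPKM. Of the 541 genes lower in E2C, 63 (11.6%) were also called lower at the 1-cell stage, which was 31% of the 203 genes called there, and 18 (3.33%) were called higher there.

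Among transcription factors of pluripotency and lineage, 4 of 18 tested genes were lower and none was higher, against 8.13% and 3.68% of all genes. Their median log2 fold change was -0.37, against -0.15 for all genes. Besides *Spic* these were *Dppa4*, a chromatin-associated pluripotency gene (13.9 and 18.4 FPKM in control, 1.64 and 4.38 in *Tdp43* oKO), *Max*, the partner of MYC (24.3 and 27.1 against 5.11 and 6.63), and *Gabpa*, an ETS factor (6.48 and 4.35 against 0.736 and 0.897). Their log2 fold changes were -2.18, -1.96 and -1.80. At the 1-cell stage neither *Dppa4* (4.52 and 5.12 FPKM in control, 9.799 and 11.3 in *Tdp43* oKO) nor *Max* (22.2 and 27.6 against 12.3 and 13.3) was called.

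The homeobox genes of the *Obox* family split into 2 groups. *Obox6* (chromosome 7, 16418595 to 16425027) was 39.02 and 47.3 FPKM in control and 0.957 and 3.398 FPKM in *Tdp43* oKO (log2 fold change -3.91 ± 0.33 (SE), adjusted p = 4.37e-07), and *Obox3* was 35.7 and 34.4 against 3.59 and 7.21 FPKM (log2 fold change -2.55 ± 0.34 (SE), adjusted p = 4.66e-05). *Obox6* was at most 0.648 FPKM and *Obox3* at most 1.47 FPKM in every oocyte and 1-cell library, and for both, the *Tdp43* oKO libraries of E2C lay far below the control libraries. In contrast, the maternally stored *Obox1* and *Obox2* were higher, *Obox1* with 2005 and 1739 FPKM in control and 2687 and 5727 in *Tdp43* oKO and *Obox2* with 433 and 382 and 614 and 1264. Their calls were marginal (adjusted p = 0.0481 and 0.0497 with limma) and were lost without either control library, without *Tdp43* oKO library 2, and with equal totals or quantile normalization. *Obox5*, the most abundant member, overlapped between genotypes (3073 and 2852 against 1751 and 3375 FPKM). *Obox1*, *Obox2*, *Obox3* and *Obox5* are similar in sequence and reads may be split between them.

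OBOX proteins bind DNA through a homeodomain, and the letters TAATCC are the core bound by homeodomains of the OTX and CRX type. These letters were counted on both strands of RefSeq promoters (250 bases before to 50 bases after the start, GRCm38.p6), which were found for 395 of the 541 lower genes, 178 of the 245 higher genes and 5001 of the 6657 genes tested. TAATCC was in 45 of the 395 promoters of lower genes (11.4%), in 25 of 184 of lower genes of the 2-cell activated class (13.6%) and in 36 of 383 of the genes of that class not called lower (9.4%). It was in 5 of 178 promoters of higher genes (2.81%), in 6.38% of the genes tested and in 7.16% of 27025 promoters. Other letters were searched in the same way, and their shares are given for lower genes, genes tested and all promoters. The GC box GGGCGG was in 50.9%, 60.1% and 35.9%, the E-box CACGTG in 9.62%, 10.2% and 7.24%, and the TATA box TATAAA in 12.4%, 8.52% and 14.2%. CCAAT was in 44.3%, 41.8% and 37.9%, TAATTG, a homeodomain core, in 6.58%, 5.58% and 8.15%, TGTGTGTG in 1.77%, 2.46% and 3.98%, and the DUX motif in 0 of 5001 promoters tested. These shares are a description of the promoters and no test was made of them. Among the largest decreases, the promoters of *Timd2*, *Spic*, *Crxos*, *1600025M17Rik*, *B020004C17Rik*, *1700013H16Rik* and *Nup62cl* did not hold the letters. The promoters shown were chosen because they hold them. They are of the 3 lower genes of the 2-cell activated class with the largest decrease, a mean of at least 5 FPKM and no overlap between genotypes. TAATCC, or GGATTA where it lies on the other strand, is in capitals (RefSeq, GRCm38.p6, 5′ to 3′).
Gm16381 (chr12:87648934-87649233, minus strand): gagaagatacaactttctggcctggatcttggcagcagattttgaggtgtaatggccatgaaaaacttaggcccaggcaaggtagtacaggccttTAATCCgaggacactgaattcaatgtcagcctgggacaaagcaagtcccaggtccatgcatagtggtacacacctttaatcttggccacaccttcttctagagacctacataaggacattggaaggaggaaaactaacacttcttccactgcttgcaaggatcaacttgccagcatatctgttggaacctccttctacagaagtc
Cd63 (chr10:128909095-128909394, plus strand): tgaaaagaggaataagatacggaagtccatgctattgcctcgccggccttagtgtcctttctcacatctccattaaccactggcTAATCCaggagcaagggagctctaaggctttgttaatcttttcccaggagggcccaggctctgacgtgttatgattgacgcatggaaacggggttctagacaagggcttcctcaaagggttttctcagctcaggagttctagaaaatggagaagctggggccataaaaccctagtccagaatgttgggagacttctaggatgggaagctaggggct
Obox3 (chr7:15639728-15640027, minus strand): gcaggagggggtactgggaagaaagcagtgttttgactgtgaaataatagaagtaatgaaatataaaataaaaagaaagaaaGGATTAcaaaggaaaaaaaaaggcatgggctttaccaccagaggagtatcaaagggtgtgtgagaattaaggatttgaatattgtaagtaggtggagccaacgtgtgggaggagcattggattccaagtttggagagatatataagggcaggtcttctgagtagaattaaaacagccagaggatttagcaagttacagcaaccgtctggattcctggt
In the first, *Gm16381*, the level was 85.6 and 91.2 FPKM in control and 12.2 and 5.501 FPKM in *Tdp43* oKO. *Cd63*, a tetraspanin of late endosomes and lysosomes, was 9.84 and 11.2 against 0.3005 and 0.978 FPKM (log2 fold change -2.84 ± 0.28 (SE), adjusted p = 2.54e-06) and at most 0.403 FPKM in every oocyte and 1-cell library.

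The burst of multicopy 2-cell genes was reduced in both *Tdp43* oKO libraries, but unevenly. Of 43 burst genes tested, 25 were lower and 1 was higher, with a median log2 fold change of -1.38 against -0.15 for all genes. Over all genes, 8.13% were lower and 3.68% higher. Among the 43, 8 had a *Tdp43* oKO mean below 1 FPKM, 7 of the 25 lower genes among them. These passed the filter through the control libraries, so the counts describe the genes that passed. Their values summed to 5301 and 4773 FPKM in the control libraries and to 953 and 2463 FPKM in the *Tdp43* oKO libraries. *Tdp43* oKO library 1 was below library 2 for 39 of the 43, against 4217 of all 6657 genes. *Gm4850* had 124 and 128 FPKM in control and 8.85 and 23.8 FPKM in *Tdp43* oKO (log2 fold change -3.02 ± 0.45 (SE), adjusted p = 0.000151), and *Gm2016* had 368 and 296 against 29.8 and 91.5 FPKM (log2 fold change -2.63 ± 0.46 (SE), adjusted p = 0.000612). Both groups were apart by more than the gap between the *Tdp43* oKO libraries. *Gm2022*, *Gm5039*, *Gm8300*, *Gm5662*, *Gm4027* and *BB287469* had log2 fold changes of -2.63, -2.42, -2.35, -2.29, -2.27 and -2.26. The calls of *Gm4027* and *BB287469* were lost without either control library, that of *Gm5662* without control library 1, and that of *BB287469* also without *Tdp43* oKO library 1. With a pseudocount of 0.1 in place of 1, the calls of *Gm4850*, *Gm2016*, *Gm8300*, *Gm5662*, *Gm4027* and *BB287469* were lost. These genes are close copies of one another, so they are not independent. Without *Tdp43* oKO library 1, 18 of the 43 were lower, and 16 were lower without either control library.

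The *Zscan4* genes, which encode zinc finger and SCAN domain proteins of the 2-cell embryo, were lower with less certainty. *Zscan4c* was 627 and 516 FPKM in control and 94.9 and 326 in *Tdp43* oKO, *Zscan4f* 799 and 766 against 151 and 412, *Zscan4d* 515 and 488 against 112 and 331, *Zscan4a* 348 and 312 against 68.6 and 237 and *Zscan4b* 91.9 and 81.2 against 22.8 and 67.6. The libraries did not overlap between genotypes for any of the 5, and in each of them *Tdp43* oKO library 1 was the lowest. Their log2 fold changes were -1.69, -1.65, -1.38, -1.36 and -1.11, and the calls were lost without *Tdp43* oKO library 1, without control library 1 and, except for *Zscan4c*, without control library 2. All 5 calls were also lost with a pseudocount of 0.1 and with only the 4 E2C libraries in the model. *Zfp352* was lower too (49.6 and 42.1 against 9.14 and 16.7 FPKM, log2 fold change -1.80 ± 0.35 (SE), adjusted p = 0.00136). *Spz1* (7.001 and 9.81 against 0.348 and 1.45), *Tdpoz3* (3.12 and 3.62 against 0 and 0.0564), *Pramel6* (3.13 and 4.96 against 0 and 0.266) and *Pramel7* (5.34 and 5.24 against 0.771 and 0.328) had near-empty *Tdp43* oKO libraries. Of the *Usp17l* deubiquitinase genes, *Usp17lb* was called lower (29.4 and 32.2 against 5.56 and 24.5 FPKM), a call lost without control library 1 or 2 or without *Tdp43* oKO library 1, and, like that of *Zfp352*, with a pseudocount of 0.1. *Usp17la* (4.95 and 4.41 against 2.82 and 4.11), *Usp17lc* (7.56 and 8.799 against 2.25 and 8.63), *Usp17ld* (5.78 and 5.095 against 2.36 and 8.102) and *Usp17le* (3.15 and 4.89 against 6.26 and 5.86) were not called, and the libraries of *Usp17lc* and *Usp17ld* overlapped. *Zfp345* was the single member called higher (11.9 and 8.79 FPKM against 24.3 and 27.03, log2 fold change 1.24 ± 0.35 (SE), adjusted p = 0.0202), a call lost without either control library.

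The genotype difference of the burst genes was out of step with that at the neighbouring stages. Of the same list, 11 of 16 genes tested at the 1-cell stage were called higher in *Tdp43* oKO, and 36 of 42 tested in L2C were called higher there. Over all genes tested, 1.75% were called higher at the 1-cell stage and 6.8% in L2C. At the 1-cell stage 5 of these 11 had a control mean below 1 FPKM and passed the filter only through the *Tdp43* oKO libraries, so 11 of 16 is a description of the genes that passed. *Gm2016* stood at 0.0437 and 0.562 FPKM in 1-cell control and 4.43 and 7.92 in 1-cell *Tdp43* oKO, and at 33.2 and 25.2 and 291 and 235 FPKM in L2C. The difference between the E2C and the 1-cell effects was tested in the same model and was called lower for 23 of 40 burst genes. That between the E2C and the L2C effects was called lower for 37 of 43. Over all genes tested, these shares were 3.94% and 8.52%. For *Gm2016* the first difference was -5.08 (adjusted p = 1.17e-05). In *Tdp43* oKO the order of its levels was thus 1-cell, E2C, L2C, and in control E2C was the highest. This order did not hold for all burst genes. In *Tdp43* oKO, *Zscan4c* was 94.9 and 326 FPKM in E2C and 54.1 and 46.7 in L2C. *Zscan4f* was 151 and 412 FPKM in *Tdp43* oKO E2C and 85.6 and 78.6 in L2C, so both were highest in E2C in both genotypes.

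The ZGA genes listed by the study were lower more often than higher. They share members with the groups above, such as *Gm2016*, *Obox3*, *Timd2* and *Spic*, so they are not a separate result. Of 59 tested minor ZGA genes, 33 were lower and 2 higher (median log2 fold change -1.36). Of 413 tested major ZGA genes, 167 were lower and 3 higher (median -0.83). Over all genes tested, 8.13% were lower and 3.68% higher (median -0.15). The lists hold 64 minor and 1105 major genes with values, so most major genes were too low to be tested. The study defined these genes on reference RNA-seq data of oocytes and embryos, and the minor genes were taken here as those on its list of all ZGA genes that are not on its list of major ZGA genes. Of the 33 and 167 lower genes, 2 and 76 had a *Tdp43* oKO mean below 1 FPKM and passed the filter through the control libraries, so the counts are descriptions. The counts of lower genes were 20 and 98 without control library 1, and 22 and 123 without control library 2. *Gcsh*, the H protein of the glycine cleavage system, was among the minor ZGA genes that fell, with 44.4 and 51.01 FPKM in control and 4.41 and 8.604 FPKM in *Tdp43* oKO (log2 fold change -2.75 ± 0.45 (SE), adjusted p = 0.000348), a call lost with a pseudocount of 0.1.

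The oocyte *Fbxw* genes of chromosome 9 rose together. They encode proteins with an F-box, which binds the SCF ubiquitin ligase, and WD40 repeats. The 12 genes lie side by side on the minus strand of chromosome 9 between 109041968 and 109648603 (mm9), a stretch of 606636 bases with no other annotated gene (GENCODE M1). All 12 tested members were higher, against 3.68% of all genes (median log2 fold change 2.33, range 1.45 to 2.78, with -0.15 over all genes). They summed to 3262 and 2491 FPKM in the control libraries and 13821 and 15458 FPKM in the *Tdp43* oKO libraries. In none did the genotypes overlap, a separation that 20.5% of all genes showed in this direction. *Fbxw24* was 829 and 614 FPKM in control and 4088 and 4006 FPKM in *Tdp43* oKO (log2 fold change 2.50 ± 0.20 (SE), adjusted p = 3.58e-07), *Fbxw14* was 796 and 574 and 3305 and 3939 FPKM (log2 fold change 2.41 ± 0.23 (SE), adjusted p = 1.75e-06), and *Fbxw19* had the largest change, from 105 and 103 to 642 and 802 FPKM (log2 fold change 2.78 ± 0.24 (SE), adjusted p = 4.37e-07). The lowest member, *Fbxw13*, went from 7.36 and 4.03 to 31.1 and 37 FPKM (log2 fold change 2.43 ± 0.28 (SE), adjusted p = 9.48e-06). *Fbxw21* and *Fbxw26*, at the ends of the stretch, had the smallest changes (log2 fold changes 1.52 and 1.45). The number of genes called was 12 under each alternative setting and without each library. Of the neighbours, *Shisa5* before the row was not called (3.53 and 3.71 against 1.17 and 1.78 FPKM), *Nme6* after it was called lower (5.86 and 8.45 against 0 and 0.672 FPKM, log2 fold change -2.64) and *Cdc25a* was not called (0.779 and 0.601 against 1.25 and 1.38 FPKM). *Fbxw27*, which RefSeq also places on chromosome 9 but which was on no list, was 238 and 167 against 333 and 346 FPKM, a log2 fold change of 0.76 that was under 2-fold.

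**Figure D3:**
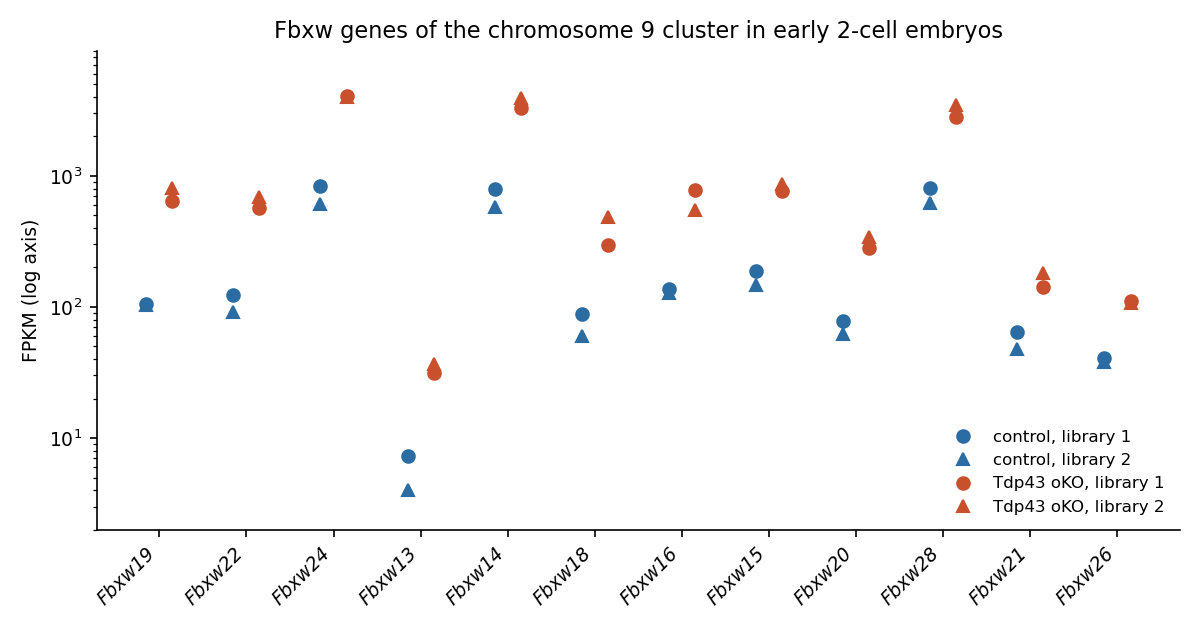
FPKM on a log axis (y) of the 12 *Fbxw* genes of the chromosome 9 row (x) in each E2C library, ordered by log2 fold change. In each gene both *Tdp43* oKO libraries lie above both control libraries, from *Fbxw19* (log2 fold change 2.78) to *Fbxw26* (1.45).

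The genes of the row are copies of one another, so reads may be split between them and they are not 12 independent results. RefSeq promoters were found for 10 of the 12, and any 2 of them were 64.7% to 97.0% identical over the columns of a global alignment, gaps included (median 85.3% over 45 pairs, GRCm38.p6). A run of 34 bases was shared without a mismatch by 8 of the 10, and by 9 of 27025 promoters in all (0.0333%), the ninth being *Fbxw25* of the same family. The promoters of the gene with the largest change and of the most abundant pair show how alike they are, with the shared run in capitals (RefSeq, GRCm38.p6, 5′ to 3′).
Fbxw19 (chr9:109495805-109496104, minus strand): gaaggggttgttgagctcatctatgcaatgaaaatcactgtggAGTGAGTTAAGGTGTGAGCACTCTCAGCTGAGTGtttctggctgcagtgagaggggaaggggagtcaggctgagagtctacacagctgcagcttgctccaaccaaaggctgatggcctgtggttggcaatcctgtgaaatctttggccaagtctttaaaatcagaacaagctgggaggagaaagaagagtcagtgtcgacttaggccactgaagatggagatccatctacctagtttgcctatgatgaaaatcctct
Fbxw24 (chr9:109626010-109626309, minus strand): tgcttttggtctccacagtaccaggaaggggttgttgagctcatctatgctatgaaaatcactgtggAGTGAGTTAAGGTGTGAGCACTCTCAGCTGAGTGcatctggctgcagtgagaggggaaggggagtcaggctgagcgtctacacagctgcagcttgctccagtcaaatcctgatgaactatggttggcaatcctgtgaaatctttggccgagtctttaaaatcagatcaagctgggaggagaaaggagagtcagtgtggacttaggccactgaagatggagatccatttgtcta
Fbxw14 (chr9:109287627-109287926, minus strand): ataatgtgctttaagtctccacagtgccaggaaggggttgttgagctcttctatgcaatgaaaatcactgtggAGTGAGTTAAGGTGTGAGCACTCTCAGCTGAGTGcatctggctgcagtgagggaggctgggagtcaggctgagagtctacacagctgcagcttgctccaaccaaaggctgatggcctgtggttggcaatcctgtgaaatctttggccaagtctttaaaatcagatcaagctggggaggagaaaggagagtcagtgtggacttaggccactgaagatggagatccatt

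The *Fbxw* transcripts are abundant in oocytes, and the genotypes parted mainly between the 1-cell stage and E2C. *Fbxw24* was 2392 and 1985 FPKM in 1-cell control and 2708 and 2620.3 FPKM in 1-cell *Tdp43* oKO embryos. By E2C the control level had dropped and the *Tdp43* oKO level had not. In L2C both were low, at 114 and 105 FPKM in control and 129 and 187 in *Tdp43* oKO. At the 1-cell stage the log2 fold changes of the 12 genes ran from -0.17 to 1.47, and 1 was called higher. The difference between the E2C and the 1-cell effects was called higher for 11 of the 12, against 2% of all genes tested. *Fbxw21* was the exception (difference 0.88 (adjusted p = 0.0502) with limma), and 9 and 7 were called without control library 1 and control library 2.

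*Zcchc10*, which encodes a CCHC zinc finger protein, had the same course on another chromosome (chromosome 11, 53138181 to 53146803). It was 674 and 594 FPKM in 1-cell control and 788 and 759 in 1-cell *Tdp43* oKO, then 211 and 170.0 FPKM in control and 1206 and 833 FPKM in *Tdp43* oKO E2C (log2 fold change 2.40 ± 0.20 (SE), adjusted p = 4.37e-07), and 88.2 and 89.4 against 80.7 and 72.5 in L2C. Only in E2C did its genotypes differ by more than 2-fold. *Gm813* was 61.9 and 32.1 FPKM in control and 401 and 289 in *Tdp43* oKO E2C (log2 fold change 2.90 ± 0.47 (SE), adjusted p = 0.000295) and 966 and 733 against 1721 and 1500.3 FPKM at the 1-cell stage, where it was not called. Of the 245 genes called higher, the difference from the 1-cell effect was called for 80 of the 242 tested, and 40 (16.3%) were themselves called higher at the 1-cell stage, which was 27.8% of the 144 genes called there (1.75% of 8211 tested). With L2C, where 528 of 7760 genes (6.8%) were called higher, 40 (16.3%) were shared in direction and 74 (30.2%) were called lower there. After median-ratio scaling, with 1327 genes higher and 904 lower in L2C, the order of these shares turned: of the 349 genes higher in E2C, 102 (29.2%) were higher in L2C and 48 (13.8%) were lower.

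The largest increase of any gene was in *Mt1* (chromosome 8, 96702989 to 96704225), a metallothionein that binds zinc and other metals. It was 38 and 26.4 FPKM in control and 696 and 567 FPKM in *Tdp43* oKO (log2 fold change 4.27 ± 0.46 (SE), adjusted p = 5.68e-06), with no overlap. The genotypes stood apart from the oocyte on, at 2.74 and 0.907 FPKM in control FGO and 746 and 927 in *Tdp43* oKO FGO, and at 2.25 and 5.15 against 318 and 321 FPKM at the 1-cell stage, where *Mt1* was called higher. In L2C *Mt1* was called lower, with 1624 and 1734 FPKM in control and 252 and 241 in *Tdp43* oKO. Over the 5 stages the *Tdp43* oKO level of *Mt1* ranged from 241 to 927 FPKM, and the control level rose above it in L2C. Metallothionein promoters hold metal response elements, which the zinc sensor MTF-1 binds. The *Mt1* promoter held 3 matches to TGCACNC or TGCGCNC, shown in capitals, which occurred on either strand in 25.6% of all promoters and in 34.8% of those of the genes called higher and 35.3% of those tested (RefSeq, GRCm38.p6, 5′ to 3′).
Mt1 (chr8:94178839-94179138, plus strand): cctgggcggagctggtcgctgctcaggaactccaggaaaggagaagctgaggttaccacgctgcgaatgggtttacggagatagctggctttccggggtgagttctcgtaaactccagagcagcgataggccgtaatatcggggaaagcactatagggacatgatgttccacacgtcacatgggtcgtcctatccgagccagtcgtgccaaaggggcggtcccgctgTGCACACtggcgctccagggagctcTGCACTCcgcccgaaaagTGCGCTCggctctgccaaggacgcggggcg
Of 25 other redox and metal genes tested, 1 was higher and 3 were lower, against 3.68% and 8.13% of all genes. *Prdx3*, the mitochondrial peroxiredoxin, was the higher one (5.51 and 3.04 against 27.6 and 22.6 FPKM, log2 fold change 2.34 ± 0.29 (SE), adjusted p = 2.31e-05). The zinc importer *Slc39a1* was lower (5.01 and 3.75 against 0.0543 and 0.392 FPKM, log2 fold change -2.14 ± 0.24 (SE), adjusted p = 8.34e-06), as was the ferritin heavy chain gene *Fth1* (170.2 and 201 against 45.98 and 93.5 FPKM), a call lost without *Tdp43* oKO library 1.

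**Figure D4:**
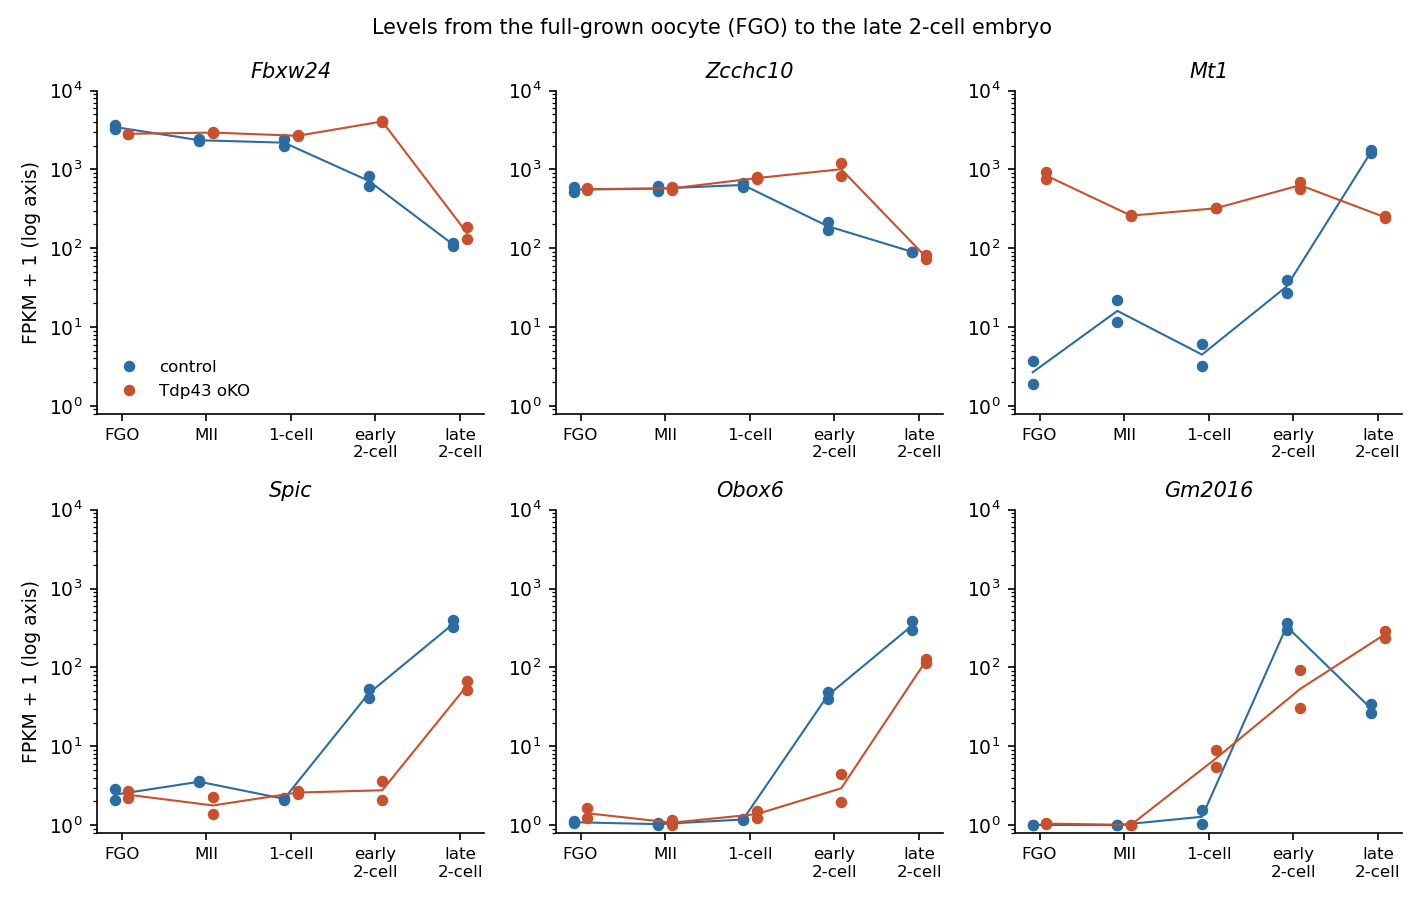
FPKM + 1 on a log axis (y) by stage (x) for 6 genes, with points for libraries and lines through the geometric means of a genotype. *Fbxw24* and *Zcchc10* part between the 1-cell stage and E2C, *Mt1* is higher in *Tdp43* oKO until E2C and lower in L2C, *Spic* and *Obox6* are lower in *Tdp43* oKO in E2C and L2C, and *Gm2016* is lower in E2C and higher in L2C.

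Among other maternal genes, *Khdc3*, *Nlrp5* and *Ooep* of the subcortical maternal complex, a multiprotein complex needed for early cleavage, were higher, and none of the 19 genes tested on this list was lower (median log2 fold change 0.47). *Khdc3* was 0.903 and 1.63 FPKM in control and 8.25 and 18.04 FPKM in *Tdp43* oKO (log2 fold change 2.57 ± 0.40 (SE), adjusted p = 0.00019), *Nlrp5* 11.8 and 10.2 against 39.1 and 37.8 and *Ooep* 135 and 119 against 267 and 254. In MII oocytes *Khdc3* was 86.2 and 55.8 FPKM in control and 255 and 247 in *Tdp43* oKO. The call of *Nlrp5* was lost without either control library and that of *Ooep* without control library 2 or *Tdp43* oKO library 1, and 6 genes of the list were called after median-ratio scaling. Of the oocyte *Nlrp4* and *Nlrp9* families, 3 of 9 were higher and *Nlrp4e* was lower, with 35.3 and 35.9 FPKM in control and 4.34 and 6.54 FPKM in *Tdp43* oKO (log2 fold change -2.53 ± 0.28 (SE), adjusted p = 6.09e-06). *Nlrp4b* was the highest of the first 3 in fold (14.8 and 12.8 against 34.5 and 42.7 FPKM, log2 fold change 1.41). Of 45 genes for storage and decay of maternal mRNA, none was higher and 2 were lower, the Y-box RNA-binding protein genes *Ybx1* (25.1 and 22.2 against 6.51 and 8.25 FPKM, log2 fold change -1.56 ± 0.18 (SE), adjusted p = 1.29e-05) and *Ybx3* (23.3 and 22.6 against 9.52 and 9.68), the latter not called without control library 1. The 6 tested genes of the *Tcl1* family, oocyte genes related to a coactivator of AKT, had no called member and a median of -0.45. Over all genes tested, 3.68% were higher and 8.13% lower.

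The remaining genes with the largest increases have no shared known role. *A330069E16Rik* rose from 2.14 and 2.18 to 33.8 and 15 FPKM (log2 fold change 2.90 ± 0.46 (SE), adjusted p = 0.000251), and it was at most 11.4 FPKM in any library of another stage. *Ceacam2*, a cell adhesion molecule, was 2.38 and 2.24 FPKM in control and 12.8 and 24.7 in *Tdp43* oKO, and was called higher at the 1-cell stage and in L2C as well. It stood at 1.08 and 1.93 FPKM in control FGO and 9.802 and 9.19 in *Tdp43* oKO FGO. *2210417A02Rik* (18.7 and 10.02 against 101.2 and 67.1 FPKM), *Ly6g6e* (2.87 and 1.88 against 11.7 and 22.6) and the cytochrome P450 pseudogene *Cyp2c53-ps* (0.866 and 3.16 against 10.6 and 20.9) complete the group, and the call of the last was lost without control library 1.

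Genes of the cytoplasmic ribosome were lower on balance, but not all of them. Of 85 tested, 26 (30.6%) were lower and 4 were higher, against 8.13% and 3.68% of all genes. Their median log2 fold change was -0.57, against -0.15 for all genes. *Rps27* was 21.6 and 16.3 FPKM in control and 1.49 and 2.85 in *Tdp43* oKO (log2 fold change -2.68 ± 0.37 (SE), adjusted p = 6.50e-05), *Rpl23a* 72.99 and 52.8 against 12.5 and 12.6 (log2 fold change -2.22 ± 0.23 (SE), adjusted p = 2.93e-06), *Rps26* 94.3 and 80.7 against 16.7 and 18.9 and *Rpl9* 16.5 and 13.96 against 1.97 and 2.88. *Rpl24* and *Rps27rt*, a close copy of *Rps27*, also fell. *Rpl5* (13.98 and 11.8 against 44.1 and 36.4 FPKM, log2 fold change 1.57 ± 0.22 (SE), adjusted p = 7.17e-05) and *Rpl11* (70.8 and 43.1 against 164 and 134), whose proteins join the 5S ribonucleoprotein and bind MDM2, were higher, and the call of *Rpl11* was lost without control library 2. *Rpl23a* was 7.43 and 8.09 FPKM in 1-cell control and 6.75 and 6.92 in 1-cell *Tdp43* oKO, so its control level rose by E2C and its *Tdp43* oKO level rose by less. Without either control library, 16 ribosomal protein genes were lower. Genes of ribosome biogenesis went both ways, with 6 higher and 11 lower of 84, and 10 and 10 after median-ratio scaling. *Emg1*, an rRNA methyltransferase gene, rose (17 and 20.9 against 68.4 and 83.9 FPKM, log2 fold change 1.95 ± 0.32 (SE), adjusted p = 0.000345) and *Znhit6*, a gene for snoRNP assembly, fell (12.8 and 15.5 against 2.02 and 2.47 FPKM, log2 fold change -2.22 ± 0.21 (SE), adjusted p = 1.58e-06). Of 69 mitochondrial ribosomal protein genes 4 were higher and 4 were lower, but 3 were higher and 16 lower without *Tdp43* oKO library 2 and 3 and 9 with equal totals, with *Mrps28* at 14.4 and 13.8 FPKM in control and 76.6 and 61.3 in *Tdp43* oKO.

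Respiratory chain and ATP synthase genes had 7 higher and 1 lower of 74 tested (median 0.16), against 3.68% higher and 8.13% lower of all genes. *Ndufb3* (64.6 and 38.8 against 180.0 and 171 FPKM, log2 fold change 1.79 ± 0.23 (SE), adjusted p = 3.62e-05) and *Ndufs5* (71.9 and 57.7 against 184 and 232 FPKM, log2 fold change 1.66 ± 0.22 (SE), adjusted p = 3.38e-05), both of complex I, changed most. *Uqcrq* of complex III was lower (57.9 and 49.3 against 22.99 and 26.8 FPKM), a call lost after median-ratio scaling and without control library 1 or *Tdp43* oKO library 1. The counts were 12 higher and none lower after median-ratio scaling, 5 and 3 with equal totals and 2 and 2 without control library 2, so the direction was not kept. Of 37 proteasome genes, 4 were higher and 3 were lower (2 and 4 without *Tdp43* oKO library 2, 6 and 1 without *Tdp43* oKO library 1), among them the core subunit genes *Psma2* (286 and 218 against 831 and 722 FPKM, log2 fold change 1.63 ± 0.18 (SE), adjusted p = 5.22e-06) and *Psma5* (44.3 and 31.5 against 106 and 154 FPKM, log2 fold change 1.75 ± 0.22 (SE), adjusted p = 2.31e-05) that rose and *Psmb5* (3.91 and 1.93 against 0.0127 and 0.285) that fell.

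Of 16 lysosomal genes tested, 6 were lower and 1 was higher, against 8.13% and 3.68% of all genes. Besides *Cd63*, the lower genes included the protease gene *Ctsl* (17.8 and 17 FPKM in control, 1.92 and 4.71 in *Tdp43* oKO, log2 fold change -2.17 ± 0.33 (SE), adjusted p = 0.000189) and the glycosidase gene *Gla* (4.39 and 5.37 against 0.631 and 0.642), and 4 were called without either control library or without *Tdp43* oKO library 1. The mitotic kinase gene *Cdk1* was lower (22.8 and 14.9 FPKM in control, 1.29 and 5.71 in *Tdp43* oKO, log2 fold change -2.31 ± 0.36 (SE), adjusted p = 0.000219) among 48 cell cycle genes, of which 4 were lower, a share close to the 8.13% of all genes, and 1 was higher. Without *Tdp43* oKO library 1 the counts were 2 lower and 3 higher. *Cdk1* did not differ in this way at the 1-cell stage (32.9 and 41.4 against 35.5 and 39.2 FPKM). Of 37 DNA replication genes, 4 were higher and 2 were lower, and 3 and 5 without *Tdp43* oKO library 2. *Pola2*, a subunit gene of DNA polymerase alpha, fell (9.62 and 6.75 against 0.989 and 1.24 FPKM), a call lost without control library 1, and the licensing gene *Mcm10* rose (0.408 and 0.282 against 3.21 and 2.19 FPKM, log2 fold change 1.45 ± 0.23 (SE), adjusted p = 0.000234).

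**Figure D5:**
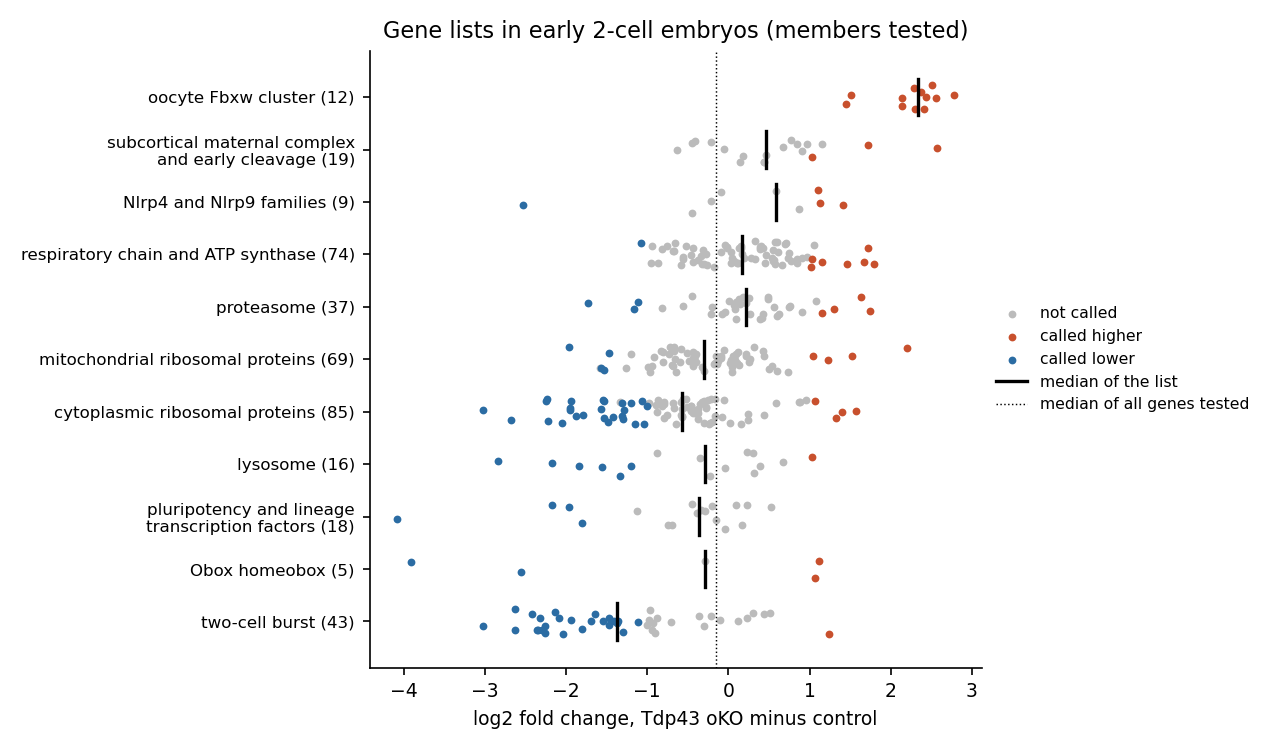
Log2 fold change in E2C, *Tdp43* oKO minus control (x axis), of each tested member (points, coloured by call) of 11 lists (y axis, number of members tested in parentheses), with the median of each list and, dotted, of all genes tested (-0.15). All 12 *Fbxw* genes lie at 1.45 or above, and 25 of 43 burst genes are called lower.

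Cyclin T1, the regulatory subunit of the elongation factor P-TEFb, is a partner of TDP-43 that the study examined, along with RNA polymerase II. *Ccnt1* was 1.77 and 1.68 FPKM in control and 0.933 and 1.32 in *Tdp43* oKO (log2 fold change -0.36, adjusted p = 0.468 with limma), which was not called, and *Ccnt2* overlapped between genotypes (1.67 and 2.76 against 1.52 and 3.42 FPKM). Of 31 tested genes of P-TEFb, 7SK, pausing and elongation, 1 was higher and 2 were lower, *Supt4a*, a subunit gene of DSIF (121 and 121 against 45.2 and 52.6 FPKM, log2 fold change -1.30 ± 0.29 (SE), adjusted p = 0.00429), and *Mllt3* of the super elongation complex (53.8 and 51.8 against 28.7 and 22.5 FPKM). Both calls were lost without either control library, and that of *Mllt3* also without *Tdp43* oKO library 2. Of 21 RNA polymerase subunit genes, 2 were lower, *Polr2e* and *Polr1c* (log2 fold changes -1.75 and -1.45), and both calls were lost without control library 2 or *Tdp43* oKO library 1, that of *Polr2e* also without control library 1. Of 39 genes of hnRNP, FET and SR proteins, 1 was higher and 4, *Tardbp* included, were lower. Over all genes tested the shares were 3.68% higher and 8.13% lower, and no list of this paragraph was tested against them. Of 36 genes of the spliceosome core, 2 were higher and 3 were lower, with *Lsm5* as the largest increase (25.3 and 25.4 against 85.96 and 97.1 FPKM, log2 fold change 1.81 ± 0.25 (SE), adjusted p = 6.04e-05). Translation factor genes had 2 higher and 5 lower of 47, and within eIF3 *Eif3m* rose (3.004 and 2.81 against 18.2 and 13.2 FPKM, log2 fold change 2.08 ± 0.31 (SE), adjusted p = 0.00016) while *Eif3c* fell (4.01 and 2.59 against 0.373 and 0.475 FPKM), a call lost without control library 1.

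With a pseudocount of 5, which lowers the fold change of low genes, the calls of *Cyp19a1*, *Gabpa*, *Tdpoz3*, *Pramel6*, *Pramel7*, *Slc39a1*, *Psmb5*, *Gla*, *Mcm10*, *Eif3c*, *Mllt3*, *Polr2e*, *Polr1c*, *Uqcrq* and *Ybx3* were lost as well. With a pseudocount of 0.1, those of *Obox1*, *Obox2*, *Zfp345* and *Ly6g6e* were lost. Transcript length did not go with the change. Over 6029 genes with a length (90.6%), Spearman's rho between length and log2 fold change was 0.00091 across genes, and the median was -0.18 in the shortest and -0.17 in the longest of 4 equal groups.

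The effect in E2C was compared with that of the neighbouring stages in the same model. Against the 1-cell stage, 155 of 7759 genes (2%) had a higher and 306 (3.94%) a lower effect in E2C. Against L2C, 2317 of 7836 genes (29.6%) had a higher and 668 (8.52%) a lower effect as deposited, but 822 a higher and 1426 a lower one after median-ratio scaling, and the median log2 fold change in L2C was -0.79 as deposited. *Mt1* had the largest difference that favoured E2C over L2C, 7.03 (adjusted p = 1.70e-07). Apart from it, several nuclear genes for mitochondrial and proteasome proteins were higher in *Tdp43* oKO E2C and lower in *Tdp43* oKO L2C. *Uqcrb* of complex III was 96.6 and 45.4 FPKM in control and 321 and 152 in *Tdp43* oKO E2C, and 246 and 220.1 against 8.29 and 13.5 in L2C, and its E2C call was lost without control library 2. *Psma5* had 68.5 and 82.4 against 6.96 and 7.82 FPKM in L2C, so that its order, too, turned between the stages.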

How the data were processed

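RNA-seq of pooled oocytes and embryos was used as deposited, as FPKM values that the authors computed from smart-seq2 libraries. Per the labels, StringTie 2.1.2, HISAT2 2.2.1 and Trim Galore 0.6.6 stand in the submitters' notes, with the build mm9. The depth per library and the counting precision are unknown, since FPKM keeps no counts. Of 24085 listed genes, 2 without values and 27 with date-like names were left out, and 16 Stacc-seq samples were not analysed here.

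FPKM values were analysed as log2(FPKM + 1) with limma 3.58.1 in R 4.3.3. A single model over 24 libraries in 12 groups (11227 genes, 12 residual degrees of freedom) was fitted with 1 weight per collection of embryos, a mean-variance trend and robust moderation. The genotype difference in E2C was tested on genes with a mean of at least 1 FPKM, with Benjamini-Hochberg adjustment over all 6657. Calls required an adjusted p no greater than 0.05 together with a 2-fold difference or more. Differences between stages were contrasts of the same model. Checked on simulated data for this comparison, the model called 88% of 100 genes changed by 1.5 (log2), 98% of 100 genes changed by 2, and 17 unchanged genes of 6878 genes tested. The 15 alternatives per result covered the pseudocount, filter, scaling, weights, libraries in the model, replicate block and each E2C library left out.

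Members and gene lists were chosen with earlier results of these data known. Genes were named by rule: those in the study's text, the 15 largest called changes in each direction and the largest changes of each list. The largest differences between stages were named too. For the 15 in each direction, a mean of at least 5 FPKM and no overlap between the libraries of the genotypes were required. A few genes that the rule names are not reported here. *Shisa5*, *Nme6*, *Cdc25a*, *Fbxw21*, *Fbxw26* and *Fbxw27* were added after their values were seen. Positions are from GENCODE M1 (mm9), and promoters from RefSeq (GRCm38.p6).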

Additional observations from a re-analysis of the deposited data

Results flagged for a closer look

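The effects that differed most between E2C and another stage are given here as the E2C log2 fold change minus that of the other stage, all with limma and adjusted p of at most 0.05 over all genes tested in that contrast. Against L2C, genes with a higher effect in E2C were *Mt1* (7.03), *Uqcrb* (6.06), *Eif3m* (5.18), the mitochondrial import gene *Mtx2* (5.18), the copper chaperone gene *Cox17* (4.95), *Psma5* (4.93), *Actr6* (4.88) and *Emg1* (4.86). All of these were called higher in *Tdp43* oKO in E2C and called lower in L2C. Genes with a lower effect in E2C than in L2C were *Gm11758* (-7.20), *Gm11757* (-6.63), *Gm13871* (-6.44), *Gm428* (-6.25), *LOC101055863* (-6.16), *LOC100862015* (-6.10), *Gm11236* (-6.06) and *Gm11487* (-6.05). In E2C these ran from -1.81 to -2.87 and in L2C from 3.88 to 4.34, and reads may be split between genes of this kind.

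Against the 1-cell stage, a higher effect in E2C was found for *Gm19757* (5.40), *S100a8* (5.25), *Hist4h4* (3.43), *Snora30* (2.94), *Gm13826* (2.47), *Gm12238* (2.38) and *Fbxw22* (2.35). *S100a8* was listed at 0 in all 4 E2C libraries, so its value is the 1-cell difference alone (161 and 16.7 FPKM in control, the libraries far apart, and 0.699 and 0.176 in *Tdp43* oKO). *Snora30* was at most 1.47 FPKM in E2C, too low to be tested there, and *Gm12238* was not called with quantile normalization. A lower effect in E2C was found for *Gm5662* (-5.28), *BB287469* (-5.16), *Timd2* (-5.12), *Gm2016* (-5.08), *Gm4027* (-5.07), *Gm8300* (-4.92), *Crxos* (-4.55) and *Gm2022* (-4.47). The sign of each of these differences, and of those against L2C, stayed the same under equal totals, median-ratio scaling and quantile normalization.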

How the results depend on the processing

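The counts moved with the processing. So did the direction of the differences against L2C, with 2317 higher and 668 lower as deposited. These were 930 and 1396 with equal totals, 822 and 1426 with median-ratio scaling, and 1201 and 1210 with quantile normalization. The genes called higher (245) numbered 123 with a pseudocount of 5, 380 with no fold threshold and 125 to 285 with 1 E2C library left out. The genes called lower (541) numbered 204 with a pseudocount of 5, 274 with a filter at a mean of 5 FPKM and 258 to 902 with 1 library left out. The differences called against L2C (2985) were 1681 and 1680 with that pseudocount and that filter, and those against the 1-cell stage (461) were 305 with a pseudocount of 0.1, 256 with 5, 254 with the filter, 237 from the libraries of the comparison alone and 224 to 772 with 1 library left out. The called members of the gene lists (191) were 122 with a pseudocount of 5 and 118 to 246 with 1 library left out. Scaling changed the split of called genes, with 31.2% higher as deposited, 24.2% with equal totals (211 higher and 661 lower), 43.5% with median-ratio scaling (349 and 454) and 42.8% with quantile normalization (297 and 397). With a replicate block the counts were 241, 555, 2986, 460 and 188, but the replicate numbers did not pair the libraries (correlation of deviations 0.0934). Of 119 named genes called, 68 kept their call under every alternative run and none changed sign. Among named genes not called, some changed sign. With equal totals *Ccnt2* was at -5e-04, and with 1 library left out *Ccnt2* ran from -0.33 to 0.48, *Obox5* from -0.76 to 0.19, *Usp17lc* from -1.49 to 0.072 and *Usp17ld* from -0.94 to 0.50, and the cause was not tested. Depth is unknown, and 2 libraries per genotype limit the precision.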

Other observations

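Among gene groups outside the comparisons above, histone genes went both ways, with 3 higher and 4 lower of 42 tested, and 1 and 1 without control library 2. *H2afv*, which encodes a histone H2A.Z variant, fell from 54.5 and 56.7 FPKM in control to 12.3 and 16.1 FPKM in *Tdp43* oKO (log2 fold change -1.91 ± 0.33 (SE), adjusted p = 0.000596). *Hist1h4d* was 0.8497 and 5.44 FPKM in control and 15.2 and 18.6 in *Tdp43* oKO, with the control libraries far apart, and its call was lost without control library 1. Of 12 p53 target genes 1 was lower, the apoptosome gene *Apaf1* (11.4 and 7.31 against 2.27 and 1.75 FPKM, log2 fold change -1.76 ± 0.26 (SE), adjusted p = 0.000151), and none was higher. None of 11 genes of the integrated and ER stress response was called, and *Ddit3*, which encodes CHOP, was 21.3 and 20.1 against 11.5 and 13.6 FPKM (log2 fold change -0.68). Of 28 heat shock chaperone genes 2 were lower, with *Dnajb9*, an ER co-chaperone gene, at 158 and 123 FPKM in control and 41.99 and 65.05 in *Tdp43* oKO (log2 fold change -1.40 ± 0.24 (SE), adjusted p = 0.000479). *Lars*, a leucyl-tRNA synthetase gene, was higher (0.332 and 0.564 against 3.06 and 3.62 FPKM, log2 fold change 1.59 ± 0.24 (SE), adjusted p = 0.000157), as 1 of 2 called among 15 synthetase genes. The snoRNA host gene *Snhg6* rose as well, from 17.9 and 10.2 to 36.1 and 49.7 FPKM (log2 fold change 1.57 ± 0.25 (SE), adjusted p = 0.000216). Over all genes tested the shares were 3.68% higher and 8.13% lower, and the lists of this paragraph were not tested against them.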
